A study of Mus musculus with 2 samples.

Results

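The cytosolic ribosomal protein genes were compared between fast and slow skeletal muscle fibres of the mouse, with the muscle-restricted gene Rpl3l and its widely expressed paralogue Rpl3 kept apart. The genes were taken by name, though earlier results of these data were known when the group was chosen. They are every protein-coding gene whose symbol is Rpl or Rps plus a number, with or without a final a, x or l, and the stalk genes Rplp0, Rplp1 and Rplp2. The kinases of the Rps6k family and 2 pseudogenes, Rpl6l and Rps4l, were left out. This gave 80 genes of the 23458 genes with a named probe on the array, namely 30 of the small subunit, 47 of the large subunit and 3 of the stalk. Of these, 77 were measured in both fibre pools, which means a probe signal well above background on each array, as were 12846 of all genes.

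A ribosome is built from a small subunit, which reads the mRNA, and a large subunit, which joins the amino acids, and each ribosomal protein is as a rule present once in it. Cells therefore tend to keep the mRNAs of these genes in step, and many of them begin with a run of pyrimidines (a 5′ terminal oligopyrimidine, or TOP, sequence) through which mTOR signalling adjusts their translation. A few of the proteins have a paralogue that can take the same place. RPL3 reaches towards the catalytic centre of the large subunit, and RPL3L, made almost only in heart and skeletal muscle, takes its position in the ribosomes of mature muscle.

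The 2 samples were pools of isolated single fibres, each hybridised to 1 mouse Agilent array with a single dye (Cy3). Both pools came from 8 male mice, 6 to 8 weeks old, that were heterozygous (G/+) for GFP-Myh7, a label by which fibres with the slow myosin heavy chain fluoresce. The fast pool held 4447 fibres without GFP from the extensor digitorum longus (EDL), and the slow pool held 1659 fibres with GFP from the soleus. Labelling of each pool started from 0.1 µg of total RNA. For the slow sample the labels conflict: the tissue field gives the EDL, but the soleus is given both as its source and in the treatment protocol. Fibre type and muscle of origin differed together, so that their shares in any difference cannot be told apart. No wild-type sample was analysed here, and a pool is 1 sample: no test was possible, and every difference given here is between these 2 pools.

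Values are spot intensities, and differences are log2 slow minus fast after each array was scaled to the 75th percentile of its own spots, so that 1 is a 2-fold higher value in slow fibres and 0 is no difference. A gene with several probes is represented by the brightest. The error printed beside a difference comes from the signal errors that the scanner software assigns to the spots, and it does not cover the spread between mice. It was 0.20 for each of the 77 genes, so for them it acts as 1 fixed limit and not as a measured spread. Repeated spots of the ribosomal probes varied less, with a median SD of 0.04. A difference of at least 2-fold was the size counted as a call. In such pooled fibres, fewer cells of a type and less RNA per cell cannot be told apart.

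The labelled fibre types were checked against their defining genes. All 5 slow fibre markers were at least 2-fold higher in the slow pool and all 5 fast fibre markers at least 2-fold higher in the fast pool. Myh7, slow myosin, by whose label the fibres were picked, had an intensity of 1094 in fast and 316863 in slow fibres, and Myh4, the fast 2B myosin, 160781 and 57.9. The measured markers of endothelial cells, fibroblasts, red blood cells and immune cells were higher in the fast pool, except that Cd3e was about level. The difference of this immune marker on its brightest probe, -0.04, was smaller than its software error of 0.21. Its other probe gave 38.2 in fast and 5.90 in slow fibres, and was well above background in the fast pool only. The summed level of the 5 endothelial markers, in multiples of the array's 75th percentile, was 6.92 in fast and 2.45 in slow fibres. For fibroblasts the sum over 4 measured markers of 5 was 144 against 34.7, with the remaining marker, Dpt, well above background in the fast pool only. For red blood cells it was 52.0 against 19.9 over 3 measured markers of 4, and for immune cells 15.5 against 4.11 over 3 measured of 5, with Ptprc and Adgre1 not well above background in either pool. Satellite cell markers summed to 5.35 and 5.91 over 3 measured of 4, with Myf5 not well above background, but they went apart: the differences were -1.71 for Vcam1, 0.28 for Cdh15 and 0.60 for Pax7. The part of these cells in the differences below was not tested.

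Promoter sequences are shown for Rpl3l and Rps27l, the genes with the lowest slow minus fast difference. Beside them stand Rps13, Rps21, Rps18 and Rps6, some of the 10 highest genes. They were read from RefSeq's table for assembly GRCm38.p6, which held 72 windows for 60 of the 80 genes. It held none for Rpl3, the highest gene, so Rpl3 and Rpl3l cannot be set side by side here. Each printed stretch runs from 100 bases before to 20 bases after an annotated transcription start, 5′ to 3′ on the strand of the gene. Rpl3l, Rps21 and Rps27l have 2 windows each, of which the first is printed. The second of Rpl3l and that of Rps27l held no marked letters in this stretch. Capitals mark CCGGAAG (the core bound by ETS family factors), GGGCGG (the GC box of Sp1), CAGCTG (an E-box form bound by myogenic factors) on either strand, and, near the start, a C followed by at least 5 C or T, a run that the end of a printed window can cut short, as in Rps6. The Rpl3l window is chr17:24727726-24727845 (+), Rps13 chr7:116334171-116334290 (-), Rps21 chr2:180257279-180257398 (+), Rps27l chr9:66945986-66946105 (+), Rps18 chr17:33955646-33955765 (-) and Rps6 chr4:86857348-86857467 (-).
Rpl3l: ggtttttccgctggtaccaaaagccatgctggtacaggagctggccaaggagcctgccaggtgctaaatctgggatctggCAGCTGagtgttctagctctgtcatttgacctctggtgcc
Rps13: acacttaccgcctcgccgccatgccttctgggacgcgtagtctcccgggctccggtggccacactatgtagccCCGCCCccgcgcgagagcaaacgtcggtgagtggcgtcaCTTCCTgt
Rps21: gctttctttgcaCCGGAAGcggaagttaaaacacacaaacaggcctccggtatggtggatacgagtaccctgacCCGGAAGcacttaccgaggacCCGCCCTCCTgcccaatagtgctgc
Rps27l: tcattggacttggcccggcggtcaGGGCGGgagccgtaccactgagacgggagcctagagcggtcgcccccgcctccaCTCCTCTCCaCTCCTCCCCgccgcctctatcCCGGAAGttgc
Rps18: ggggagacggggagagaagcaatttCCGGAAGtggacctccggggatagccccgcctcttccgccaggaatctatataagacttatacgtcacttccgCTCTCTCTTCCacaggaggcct
Rps6: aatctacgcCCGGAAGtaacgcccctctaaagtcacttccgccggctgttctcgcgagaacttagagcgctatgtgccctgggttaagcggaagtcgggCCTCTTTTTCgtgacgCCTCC

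Motifs were counted on both strands in the whole 300-base windows (250 before and 50 after the start), each on its own where letters overlap. CCGGAAG was in 34.7% of the 72 ribosomal windows and in 8.86% of all 32851 windows. GGGCGG was in 56.9% and 35.7%, and AAGATGG, the core of the YY1 motif, in 15.3% and 6.34%. The letters typical of muscle or of TATA promoters went the other way: CAGCTG was in 5.56% of the ribosomal and 16.3% of all windows, and TATAAA in 9.72% and 13.6%. A second muscle motif that was searched, of the MEF2 type, was in 0 of the 72 ribosomal windows and in 3.69% of all windows. A C followed by at least 5 pyrimidines on the coding strand, within 25 bases of the annotated start on either side, was in 62.5% of the ribosomal and 35.0% of all windows, and 42 of the 60 genes had it. Both Rpl3l windows lacked the ETS letters, the GC box, the run and the MEF2-type motif, and 1 of them held CAGCTG. Rps27l, Rps13 and Rps21, which stood at the low and the high end of the values, each held a run and GGGCGG. A match is a description of letters in the window and says nothing about which factor binds there.

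As a group the ribosomal protein genes differed little between the pools and lay close to one another. Of the 77 measured genes, 73 were higher in the slow and 4 in the fast pool, where 53.2% of all measured genes were higher in the slow and 46.8% in the fast pool. The median difference was 0.28 (1.21-fold), beside 0.05 for all genes. The middle of the distribution was narrow, with an interquartile width of 0.21 against 0.93 for all genes, and an SD across genes of 0.24 against 1.09. The spread of repeated spots was alike in both, but it covers only probes printed repeatedly. Its median SD was 0.04 over 59 repeated ribosomal probes and 0.05 over 291 repeated probes of all genes. The ribosomal genes were also brighter than most. In the fast pool their lowest scaled level (log2) was 4.02, where the median of all genes was 0.86. Genes of like level were not set beside them, so whether the narrow width is particular to ribosomal genes was not tested. Only Rpl3 was at least 2-fold higher in the slow pool, and 9.47% of all genes were. None was at least 2-fold higher in the fast pool, and 12.7% of all genes were.

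**Figure D1:**
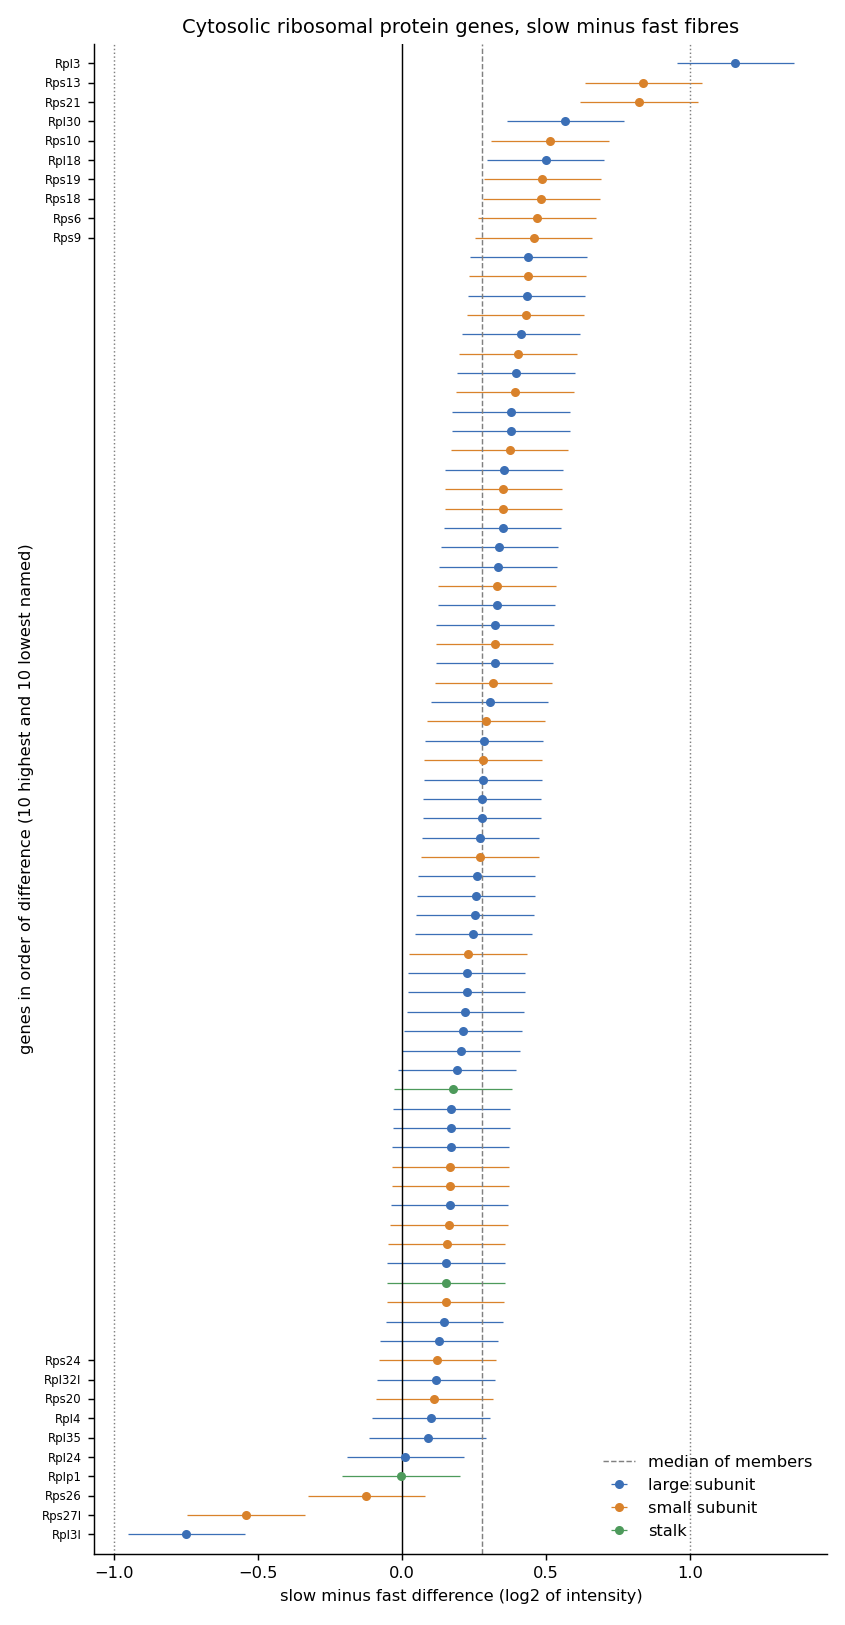
Slow minus fast difference (log2 of intensity, x axis) of each of the 77 measured ribosomal protein genes (y axis, in order of difference, with the 10 highest and 10 lowest named), coloured by subunit, with the software error of 0.20 as bars, the median of the genes as a dashed line and the 2-fold limits dotted. Rpl3 at 1.16 is the only gene past 2-fold, Rpl3l at -0.75 and Rps27l at -0.54 lie apart on the fast side, and the other 74 run from -0.12 to 0.84.

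How far the genes lay above 0 depended on the scaling. Over 9 ways to scale the arrays the number higher in the slow pool ran from 55 of 77, under a loess curve on the mean signal, to 75, under spike-in controls. In the same way the median of the group ran from 0.09 to 0.70, and the median of all genes moved by up to 0.42 (spike-in). Of these scalings, 5 shift all genes by 1 constant, so that the order of the genes and the distance of the ribosomal median from that of all genes, 0.23, are the same in each by construction. Under the other 4, which can reorder genes, that distance ran from 0.12 to 0.29, with Rpl3 highest, Rpl3l lowest and Rps27l second from the lowest.

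**Figure D2:**
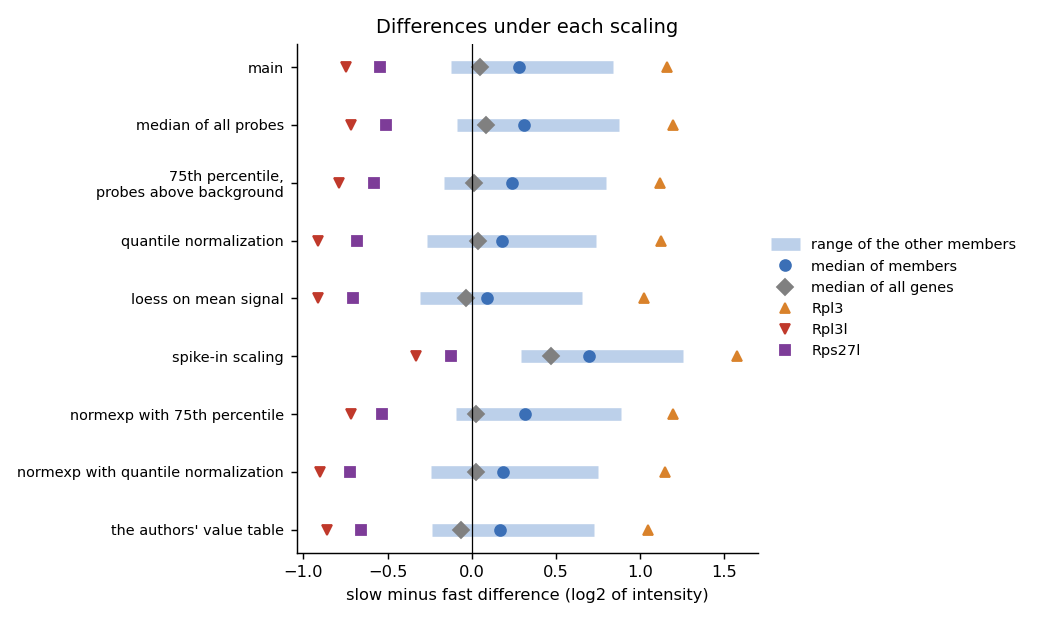
Slow minus fast difference (log2 of intensity, x axis) under the 9 scalings (y axis): medians of the ribosomal protein genes and of all genes, the values of Rpl3, Rpl3l and Rps27l, and a bar for the range of the other 74 ribosomal genes. Rpl3 lies right of the bar (1.02 to 1.58), and Rpl3l (-0.92 to -0.33) and Rps27l (-0.72 to -0.13) lie left of it.

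**Figure D3:**
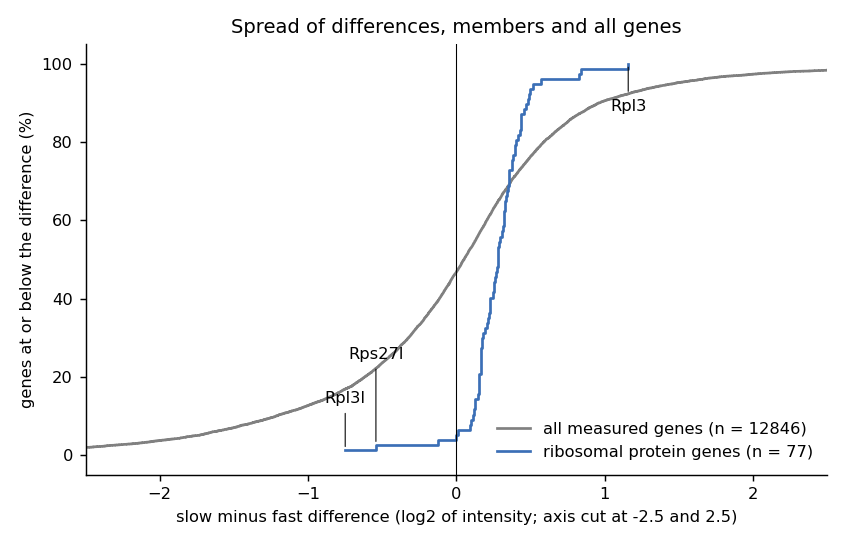
Share of genes (y axis, percent) at or below a slow minus fast difference (x axis, log2 of intensity) for the 77 ribosomal protein genes and all 12846 measured genes. The ribosomal curve climbs steeply between 0 and 0.6, while the curve of all genes spreads past 2-fold on both sides.

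By size, 36 of the 77 genes (46.8%) had a difference from 0.2 to 0.4, a span that held 11.8% of all measured genes. Another 21 lay from 0 to 0.2 and 13 from 0.4 to 0.6. Just 3 lay above 0.6, namely Rpl3, Rps13 and Rps21, and 16.9% of all measured genes lay from 0.6 to 2. The software error is the same limit of 0.20 for each of the 77 genes. Against it, 51 genes were higher in the slow and 2 in the fast pool by more than 1 error, and 17 exceeded 2 errors. Of all measured genes, 39.3% and 34.8% passed 1 error in these directions, and 52.7% passed 2 errors in either.

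RPL3 and RPL3L are alternative forms of the same large-subunit protein, and their genes went opposite ways. Rpl3, the form of most tissues, had an intensity of 2909 in fast and 6946 in slow fibres, a scaled level of 4.02 and 5.18. The difference was 1.16, or 2.23-fold higher in the slow pool. Its other probes gave 1.17 and 1.52, so that all 3 probes were past 2-fold. One of these had 9 spots in use on each array. They ranged from 1901 to 2038 (median 1942) in the fast pool and from 4482 to 4912 (median 4761) in the slow pool, without overlap. Among all measured genes 7.7% had a higher difference than Rpl3.

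Rpl3l, the form of striated muscle, had an intensity of 18784 in fast and 11956 in slow fibres, a scaled level of 6.71 and 5.96. The difference was -0.75, or 1.68-fold higher in the fast pool, from 1 probe with a single spot. It was well above background in both pools, so that the transcript was measured in slow as in fast fibres. A lower difference was found for 16.9% of all measured genes, so that its size is not rare on the array, whereas it was the lowest of the ribosomal genes. Between the paralogues, the difference of Rpl3l minus that of Rpl3 was -1.91 with a combined software error of 0.29, which makes the ratio of Rpl3l to Rpl3 3.75-fold higher in the fast pool. With the other Rpl3 probes it reached -2.27. Since a scaling shifts both genes nearly alike, this value stayed between -2.05 and -1.91 under the alternatives.

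**Figure D4:**
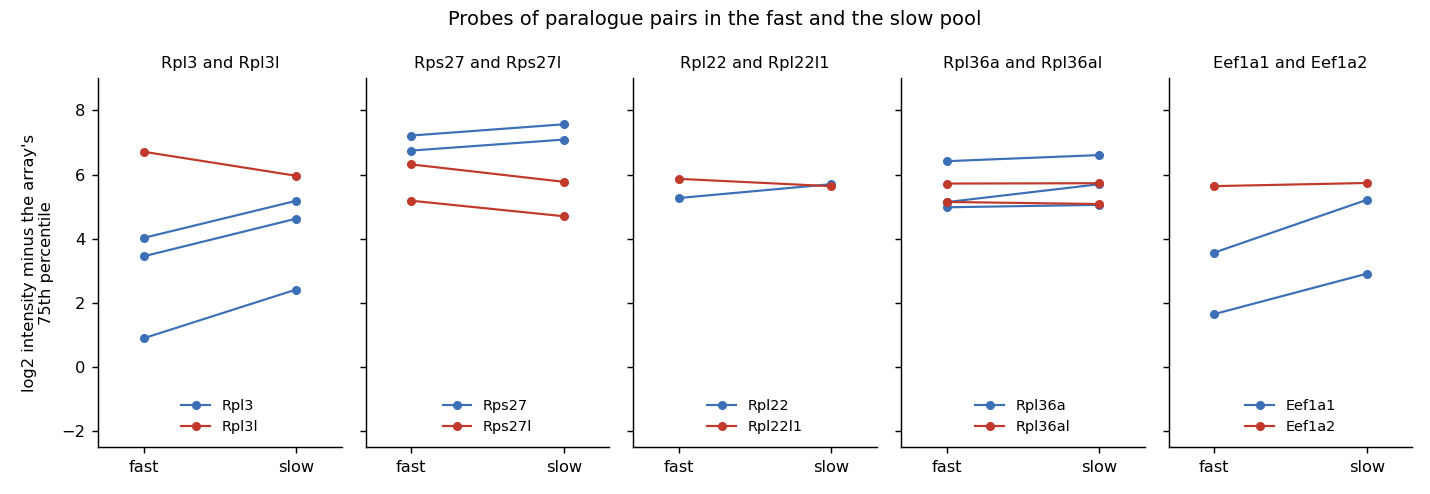
Scaled level (log2 intensity minus the array's 75th percentile, y axis) of every measured probe of 5 paralogue pairs in the fast and the slow pool (x axis), 1 line a probe. The slope of a line is the difference between pools, and the heights of different probes are not comparable. The 3 Rpl3 probes slope up from fast to slow and the Rpl3l probe slopes down, both Rps27 probes slope up and both Rps27l probes down, and Rpl22 slopes up and Rpl22l1 down.

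Other paralogues were followed in the same way. Rps27l, a relative of the small-subunit gene Rps27 that p53 is known to induce, had intensities of 14275 in fast and 10489 in slow fibres, 1.46-fold higher in the fast pool, and its probes gave -0.54 and -0.48. Rps27 went from 26650 in the fast to 36451 in the slow pool, a difference of 0.35. The difference between these paralogues was -0.89, next in size to that of Rpl3l and Rpl3 among the ribosomal pairs. Rpl22l1, whose protein can stand in for RPL22 on the outer face of the large subunit, measured 10443 and 9534 (-0.23), and Rpl22 measured 6908 and 9982 (0.43). Here the difference between the paralogues was -0.66, with a combined error of 0.29.

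The remaining pairs lay closer together or were not measured. Rpl36a had a difference of 0.19 and its copy Rpl36al 0.01, and Rpl7 had 0.27 and its relative Rpl7l1 0.14. Rps4x on the X chromosome had 0.39, beside -0.12 for Rps4l, which RefSeq lists as a pseudogene. Rpl10l and Rpl39l, copies known from the testis, were not well above background in either pool, with intensities of 1.55 and 1.88 for Rpl10l and 1.52 and 2.28 for Rpl39l. Their parents were measured, Rpl10 with a difference of 0.13 and Rpl39 with 0.22. The third gene without a value was Rpl37, whose only probe gave 3.24 and 8.71 and was not well above background in either pool.

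The small-subunit genes had a median difference of 0.33, and 28 of 30 were higher in the slow pool. Rps13, whose protein lies at the bridge to the large subunit, stood highest. Its probe had 9 spots in use, which ranged from 22434 to 24450 in the fast pool and from 42391 to 46452 in the slow pool, without overlap. The difference was 0.84 (1.79-fold), with an SD of 0.06 over repeated spots. Rps21 came next, at 13861 in fast and 26243 in slow fibres, a difference of 0.82 (1.77-fold) from 1 probe. These 2 genes and Rpl3 were the ribosomal genes past 1.5-fold in the slow direction, where 20.1% of all genes lay, and Rpl3l was the one past 1.5-fold in the fast direction, where 20.9% lay.

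Further small-subunit genes among the 10 highest were Rps10, Rps19, Rps18, Rps6 and Rps9. Rps10, whose protein sits near the mRNA entry, went from 35319 in the fast to 53960 in the slow pool (0.51), and its other probe gave 0.60. Rps19, a gene that is mutated in Diamond-Blackfan anaemia, went from 22929 to 34384 (0.49). Rps18 went from 51684 to 77342 (0.48), with its 3 probes between 0.45 and 0.48. Rps6 encodes the protein that S6 kinases phosphorylate below mTOR. Its spots ranged from 14080 to 15525 in the fast pool and from 20769 to 23093 in the slow pool, without overlap, and the difference was 0.47. Rps9 had 0.46.

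Rps27l was the lowest of the small-subunit genes. Rps26, whose protein lies at the mRNA exit, was the next, with 26565 in fast and 26085 in slow fibres. Its difference of -0.12 was smaller than the error, and under spike-in scaling it was 0.29. Rps20 (0.11) and Rps24 (0.12) followed. For 5 small-subunit genes listed together (Rps2, Rps3, Rps3a1, Rps10 and Rps20) the median was 0.32. Rps3a1, named outside the symbol rule, was the one below 0, at -0.05 on its brightest probe. Its other probes gave 0.42 and 0.52.

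The large-subunit genes had a median difference of 0.26, and 43 of 44 were higher in the slow pool, Rpl3l being the exception. Without Rpl3 and Rpl3l the other 42 ran from 0.01 to 0.57. Rpl30 was the highest of these, at 11092 in fast and 17595 in slow fibres (0.57), but its other probes gave 0.25 and 0.18. Rpl18 followed with 12905 in fast and 19510 in slow fibres, and its 2 probes gave 0.49 and 0.50. The lowest were Rpl24 (0.01), a gene whose protein bridges to the small subunit, and Rpl35 (0.09), Rpl4 (0.10) and Rpl32l (0.12). For Rpl24 the 10 repeated spots overlapped between the pools, from 21629 to 24260 in fast and from 20239 to 27503 in slow fibres.

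Groups with a shared place in the large subunit lay within the same narrow range. Rpl5 and Rpl11, which bind the 5S RNA and, when free, the p53 regulator MDM2, had differences of 0.41 and 0.35. All 8 genes of the peptide exit tunnel (Rpl4, Rpl17, Rpl19, Rpl23a, Rpl26, Rpl31, Rpl35 and Rpl39) were higher in the slow pool, with a median of 0.28 and a range from 0.09 to 0.38. Under the scaling that gave them the lowest value, loess, their median was 0.10. The stalk, which recruits the elongation factors, was lower: Rplp0 had 0.15, Rplp2 0.18 and Rplp1 -0.004, and the median of 0.15 became -0.04 under loess. The repeated spots of Rplp1 overlapped between the pools, from 31384 to 34922 in fast and from 34165 to 36909 in slow fibres.

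Probes of the same gene mostly gave like differences. In the 44 genes with more than 1 measured probe the range between probes had a median of 0.07, and in 41 of them all probes lay on the same side of 0. No gene had probes more than 1 apart. The widest range, 0.72, was that of Rps15a, where a dim probe with intensities of 15.4 in fast and 12.6 in slow fibres gave -0.39 and the bright ones 0.24 and 0.33. A range above 0.3 was also found for others, Rpl36a, Rpl30 and Rpl3 among them. Many ribosomal protein genes have processed pseudogenes of near-identical sequence, and probe sequences were not used here, so whether a probe also binds those was not tested. Across the 77 genes the difference was weakly related to the mean level (Pearson's r -0.17, Spearman's rho -0.24), a description over genes that share the same 2 arrays.

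Genes of ribosomal proteins or of their relatives that the symbol rule does not take were set beside the group. None of the 8 was past 2-fold, where 9.47% of all genes were in the slow and 12.7% in the fast direction. Their median was 0.13. Rack1, a scaffold on the small subunit, had 0.28, Rpsa 0.25, Rps3a1 -0.05 and Rpl22l1 -0.23.

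Translation and ribosome assembly were followed in lists of factors taken from textbook knowledge. The shares to set beside the counts of each list below are those of all measured genes. They were 9.47% at least 2-fold higher in the slow and 12.7% in the fast pool. Of 38 measured initiation factors, 0 were at least 2-fold higher in the slow and 2 in the fast pool, with a median of 0.07. The fast-side genes were Eif4g3, a scaffold of the cap-binding complex, at 2595 in fast and 804 in slow fibres (-1.79), and Pabpc1, the poly(A)-binding protein, at 6915 and 2886 (-1.36). Eif3d (0.66) and Eif3l (0.65), subunits of the factor that binds the small subunit, were the highest.

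Among 13 elongation and termination factors 1 was past 2-fold in each direction, and the median was -0.06. Eef1a1 and Eef1a2 encode the factor that carries aminoacyl-tRNA to the ribosome, in a general form and in a form of mature muscle and neurons. Eef1a1 went from 2122 in the fast to 7106 in the slow pool, a difference of 1.65 (3.13-fold), and its other probe gave 1.26. Eef1a2 measured 8924 and 10222, a difference of 0.10 that was below the error and ran from -0.06 to 0.52 over the scalings. The ratio of Eef1a2 to Eef1a1 was thus 2.92-fold higher in the fast pool, as that of Rpl3l to Rpl3 was 3.75-fold higher. Taken from 0, the muscle form of both pairs differed less between the pools than the general form did. For Rpl3l and Rpl3 this depends on where 0 is set. From the median of the ribosomal genes, Rpl3l lay further out (-1.03) than Rpl3 (0.88). Eef2, the translocase, had 0.29. Lowest were Pelo, which rescues stalled ribosomes, at 5804 in fast and 2653 in slow fibres (-1.23), and its partner Hbs1l (-0.52).

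Of 44 measured genes of ribosome biogenesis, 2 were at least 2-fold higher in the slow and 0 in the fast pool, with a median of 0.18. Nob1, the nuclease that finishes the small-subunit RNA, went from 444 in the fast to 1331 in the slow pool (1.48). Pes1, a large-subunit assembly factor, went from 1083 to 2337 (1.01), but its other probe gave 0.03. The lowest were Nolc1 (-0.90) and Nop58 (-0.58), both nucleolar proteins of small nucleolar RNA complexes. For RNA polymerase I, which makes the ribosomal RNA, 1 of 19 measured genes was past 2-fold, Polr2e at 3789 in fast and 10582 in slow fibres (1.38), a subunit shared by all 3 nuclear polymerases. The median was 0.22, with Polr1a, the largest subunit, at 0.85 and with Taf1d (-0.58) and Ubtf (-0.48) at the low end. The other probe of Ubtf gave 0.21.

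The genes that control TOP mRNAs through mTOR had a median of 0.14 over 21 measured, with 1 past 2-fold in each direction. Deptor, an inhibitor that binds mTOR, stood far out at 1034 in fast and 104 in slow fibres (-3.42, 10.7-fold higher in the fast pool) on both of its probes. Ddit4, another inhibitor of the pathway, was next with 1095 and 592 (-0.99). On the other side stood Sesn1, a sestrin that restrains the pathway, with 1537 in fast and 3324 in slow fibres (1.01), and Rptor, the subunit that recruits substrates, with 0.90. The counts past 2-fold in these lists moved with the scaling. Over the 9 scalings the slow-side count ran from 0 to 2 for initiation factors, from 1 to 5 for biogenesis, from 1 to 4 for RNA polymerase I and from 0 to 3 for the mTOR list. On the fast side it ran from 1 to 2 for initiation factors and the mTOR list and from 0 to 1 for elongation and termination factors and for biogenesis. Under loess scaling the median was -0.07 for the initiation factors, -0.22 for the elongation and termination factors and -0.02 for the ribosomal genes outside the symbol rule.

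**Figure D5:**
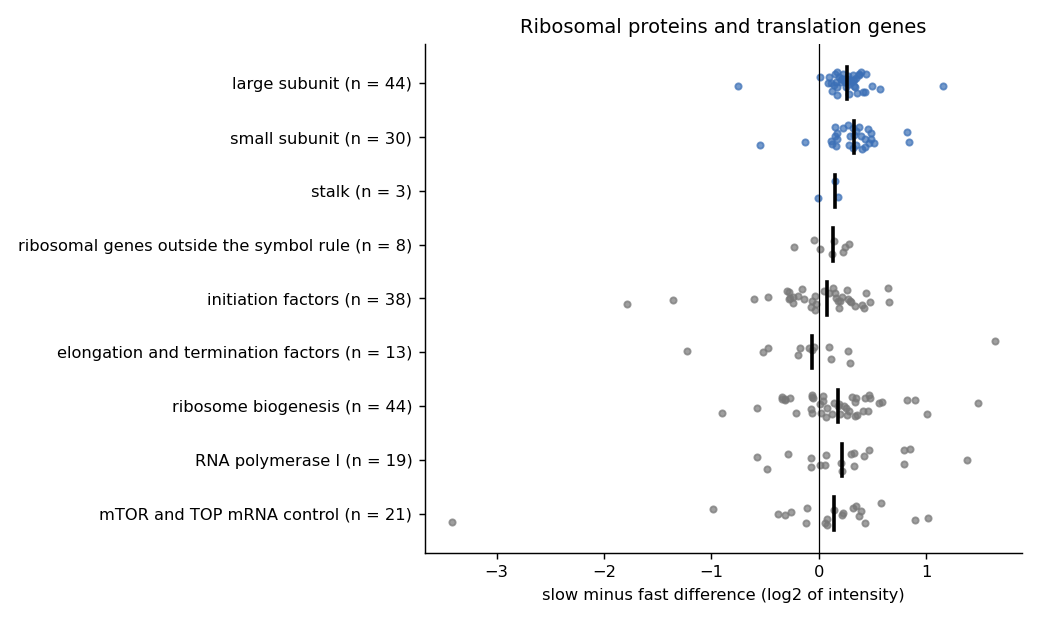
Slow minus fast difference (log2 of intensity, x axis) of each measured gene in the subunits and in the lists around translation (y axis), 1 point a gene, with a black bar at the median. Small-subunit, large-subunit and stalk genes cluster between 0 and 0.6 apart from a few, while Eef1a1 at 1.65, Nob1 at 1.48, Eif4g3 at -1.79 and Deptor at -3.42 lie far out in their lists.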

How the data were processed

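Each array's values are processed spot intensities on a linear scale, which the authors obtained with Agilent Feature Extraction 12.0.3.1 (background-subtracted and detrended within the array, not normalized between arrays), as recorded in the submitters' processing notes and, per the file headers, in the arrays' own parameters. The deposited 0 or 1 flags gave spots well above background, 30997 (52.3%) of 59305 on the fast and 30206 (50.9%) on the slow array. No spot was saturated. With 1 array per group, that number limits the precision, and no p-value was computed.

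Control spots and 159 spots flagged as outliers were left out, intensities were taken as log2 minus the 75th percentile of the array's spots, and spots of a probe were averaged (Python 3.11.15, pandas 2.3.3). The 56596 probes were named through RefSeq accessions in a GRCm38.p6 table that served for names alone, the array's build being mm9, and 33763 (59.7%) matched a gene. Alternatives (limma 3.58.1) covered the scaling, the background correction, the probe rule, the filter on dim probes and the size counted as a call. The averaging of spots into probes was run on simulated spots with planted differences. That run did not cover the naming of probes, the choice of the brightest probe or the alternative scalings. The value table that the authors deposited holds linear intensities, equal to the processed intensity times 2.83 on the fast and 2.45 on the slow array, without log or centring. Its medians were 30.1 and 27.1, and what the factors scale to is unknown.

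The genes and lists were chosen with earlier results of these data known. Values are printed for the paralogue pairs, the 10 highest and 10 lowest measured ribosomal genes, those past 2-fold, those not well above background, the 2 highest and 2 lowest of each other list, Eef1a1, Eef1a2, Myh7 and Myh4. Genes named beyond that rule (subunit neighbours, the genes with unlike probes, cell markers) were chosen by role or after their values were seen.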

Additional observations from a re-analysis of the deposited data

How the results depend on the processing

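Scaling was the choice that moved values most. With the arrays set level on the 8 spike-in controls of 10 that were well above background on both, the median of the ribosomal genes was 0.70, Rpl3 was 1.58, Rpl3l was -0.33 and 3 genes were at least 2-fold higher in the slow pool. The cause of the shift was not tested. Without the filter on dim probes 2 genes were past 2-fold in the slow direction, the added one being Rpl37, which was not well above background. At 1.5-fold in place of 2-fold the counts were 3 in the slow and 1 in the fast direction, as follows from the lower limit. Under the other alternatives these values moved by less than the software error or kept their count, and no direction reversed: the difference of Rpl3l minus that of Rpl3 ran from -2.05 to -1.91, the lowest value of Rpl3 was 1.02, and Rpl3l ran from -0.92 to -0.71. No paired analysis was possible because each group is 1 array, and no replicate could be left out for the same reason. Signal over background limits 3 of the 80 genes, which have no value.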
